A study of Mus musculus with 8 samples.

Results

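Ribosome footprints were set against mRNA in mature dendritic cells (maDCs) of wild-type mice, to see which mRNAs carried many ribosomes for their level and which carried few. The comparison used the libraries labelled WT, 4 of the 8 in the series: 2 of ribosome-protected fragments (RPF) and 2 of their input mRNA, numbered replicate 1 and replicate 2. The study profiled the same cells from Mettl3KO mice, which give the other 4 libraries, to ask what loss of the m6A methyltransferase Mettl3 does to translation. The 2 replicates were deposited as separate tables of RPKM, which corrects reads for the length of a gene and the depth of a library, so RPF was compared with input within a replicate only.

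Mettl3WT mice carried a floxed Mettl3 gene without Cre, and Mettl3KO mice (Mettl3-/- in the labels) carried CD11c-Cre as well, which removes exons in cells that express CD11c. All were C57BL/6 mice of 6 weeks. Their bone marrow was cultured with GM-CSF (10 ng/ml) and IL-4 (1 ng/ml), CD11c+ cells were taken on beads, and LPS, an agonist of TLR4, was given at 100 ng/ml for 24 h. Cycloheximide then held ribosomes on the mRNA. Part of each lysate was digested with micrococcal nuclease, single ribosomes were taken from a sucrose gradient, and fragments of 21 to 42 nucleotides were sequenced as RPF. The other part gave poly(A)-selected, fragmented input mRNA. The mice behind each replicate are not named in the labels or the methods, and the p-values given here measure spread between libraries that may be technical.

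Every ribosome that elongates protects a short stretch of its mRNA from nuclease. The density of footprints on a coding sequence, divided by the level of the mRNA, is therefore read as translation efficiency (TE), the number of ribosomes an mRNA carries for its amount. Initiation sets much of it: structured or iron-regulated 5′ UTRs, upstream open reading frames and the pyrimidine tract that opens the mRNAs of ribosomal proteins all limit how many ribosomes start. In a dendritic cell that has met LPS, mRNAs for cytokines, costimulatory molecules and interferon-stimulated proteins are abundant, and the cell shifts to presenting antigen and secreting protein.

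TE is given throughout as a relative value: log2(RPF + 0.5) minus log2(input + 0.5), each library first centred on its median over the 10211 tested genes, so that 0 is close to the median gene and 1 is 2-fold above it. A gene was tested with a mean WT input of at least 1 RPKM, whatever its RPF. In the RPF table of replicate 2, 241 genes had been scaled to a length of 1 base, with a median of 12410 RPKM there and 17.8 RPKM in replicate 1, and were left out. Cd40 and Fth1, the ferritin heavy chain, are among them, and Gapdh was not tested here either. In replicate 2 the library totals behind the values were 4835140 RPF reads and 9920474 input reads, and the median tested gene had 83 RPF reads and 377 input reads. The depth of replicate 1 is unknown.

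Mettl3 itself had 34.0 and 9.63 RPKM of RPF and 6.97 and 10.1 RPKM of input in WT cells (replicates 1 and 2), against 15.3 and 5.88 RPKM of RPF and 6.27 and 11.9 RPKM of input in the libraries labelled KO. Its footprints were lower in the libraries labelled KO in both replicates. Its mRNA there was close to that of WT in replicate 1 and somewhat higher in replicate 2. The knockout removes only some of its exons, and what that does to these values was not tested. All 12 markers of dendritic cells, such as Itgax and Flt3, had at least 1 RPKM in both WT inputs, with a summed RPF of 13530 and 33290 RPKM and a summed input of 6968 and 10060 RPKM. All 6 markers of macrophages had that level too. Cd68 among them (296 and 413 RPKM of input) is one of the genes left out for a length of 1 base. Markers of neutrophils were present as well, 8 of 9, led by S100a8 and S100a9, with a summed RPF of 9191 and 17720 RPKM and a summed input of 1714 and 3177 RPKM. Markers of mast cells and basophils reached 1 RPKM in both inputs for 3 of 6 genes, those of T and NK cells for 2 of 6, and those of B cells for none of 4. What cells other than dendritic cells contributed to the values below was not tested.

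TE spread widely around the median gene, more so in replicate 1. Between the 5th and the 95th percentile of genes it ran from -2.90 to 2.33 in replicate 1 (SD 1.63), or 0.134-fold to 5.03-fold of the median, and from -1.78 to 1.81 in replicate 2 (SD 1.14), or 0.292-fold to 3.50-fold. Across genes, which are not independent replicates, the 2 replicates correlated at r = 0.93 in input, 0.72 in RPF and 0.32 in TE (Spearman 0.94, 0.70 and 0.35). With at least 100 recovered reads in RPF and input of replicate 2, 3524 genes, the correlation of TE was 0.35. The order of genes by mRNA was thus shared far more than their order by TE.

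Above the median in both replicates lay 3383 genes (33.1% of those tested), and below it in both 3064 (30%). At least 2-fold above the median in both were 790 genes (7.74%), and at least 2-fold below in both were 773 (7.57%). Without centring these counts were 1164 and 340. Another 398 genes were at least 2-fold off in opposite directions, 229 of them low in replicate 1 and high in replicate 2. In limma, with the replicate as a block and Benjamini-Hochberg adjustment over all tested genes, 22 genes (0.215%) had a higher TE and 34 (0.333%) a lower TE than the median gene at an adjusted p below 0.05, against 20 and 7 without centring. This fit has 1 residual degree of freedom per gene and rests on spread pooled over genes. It made 147 calls with no minimum on input and 53 with a minimum of 1 RPKM on RPF as well. It made 0 without the block, with quantile normalization or with input of at least 5 RPKM. With all 8 libraries in the fit, those labelled KO included, there were 0 calls as well. The calls are therefore given beside the values of each replicate, not in place of them.

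**Figure D1:**
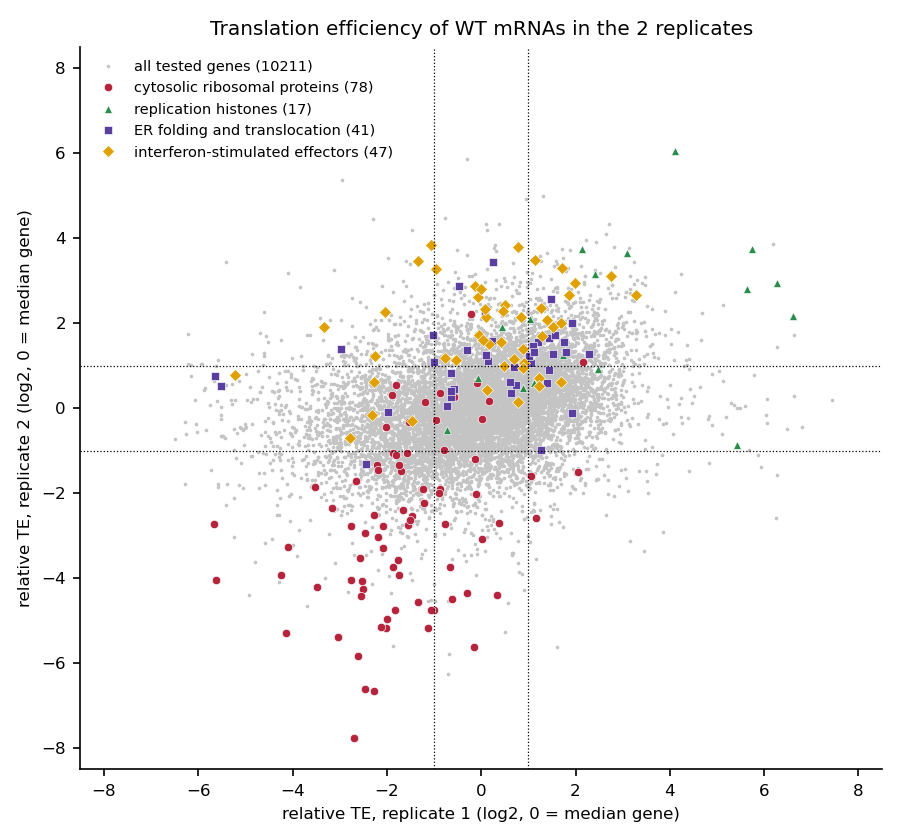
Relative TE of each tested gene in WT cells (log2, RPF over input, library medians at 0), replicate 1 on the x axis and replicate 2 on the y axis. Grey points are all 10211 tested genes, of which 4 lie outside the axes, coloured points are 4 gene lists, and dotted lines mark 2-fold above and below the median. Ribosomal protein genes gather at the lower left (median -1.75 and -2.73) and replication histones at the upper right (median 2.40 and 2.09).

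Among the 5893 protein-coding genes with a mean input of at least 5 RPKM and enough recovered reads, the 12 that ranked highest by the weaker of their 2 values included enzymes of nitric oxide and lipid synthesis, an arginine transporter and innate immune genes. Gnb4, a beta subunit of heterotrimeric G proteins, had 1004 and 243 RPKM of RPF in replicates 1 and 2, against 47.5 and 23.1 RPKM of input. Its TE was 3.23 and 3.44, and 3.34 ± 0.66 (SE) in the fit (adjusted p = 0.031, limma). Both footprint values lay far above both input values.

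Slc7a2, the transporter that brings arginine into the cell, had 1338 and 355 RPKM of RPF, against 67.5 and 27.1 RPKM of input, a TE of 3.14 and 3.76. Nos2, inducible nitric oxide synthase, which turns arginine into nitric oxide, had 297 and 79.5 RPKM of RPF, against 14.5 and 9.27 RPKM of input, a TE of 3.15 and 3.11. The adjusted p in limma was 0.031 for Slc7a2 and 0.035 for Nos2. Their intervals (95%) in replicate 2, 3.71 to 3.87 and 3.01 to 3.35, cover counting error only. The distance of both genes from 0 follows from how they were chosen. Supplier and enzyme stood side by side near the top of the order.

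Hmgcs1, which makes HMG-CoA for cholesterol synthesis, had 520 and 204 RPKM of RPF, against 20.5 and 24.8 RPKM of input (TE 3.47 and 3.09, adjusted p = 0.031 in limma). Cept1, an enzyme of phosphatidylcholine and phosphatidylethanolamine synthesis, had 1255 and 119 RPKM of RPF, against 29.2 and 13.6 RPKM of input (TE 4.25 and 3.16). Both are lipid enzymes, and both were among the calls. Pycard (ASC), the adaptor of inflammasomes, had a TE of 3.16 and 2.81, and Ifi47, an interferon-inducible GTPase, one of 2.75 and 3.12; with adjusted p of 0.051 and 0.063 in limma, neither passed. The other 5 were Micos13, of the inner mitochondrial membrane, Cnbp, a nucleic acid-binding protein, Cstf3, of the machinery that cleaves pre-mRNA for polyadenylation, Stfa2l1, of the stefin family, and Trim30d, with the weaker value between 2.77 and 3.02.

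The 12 lowest included RNA-binding and ribosomal proteins. Hnrnpf, a splicing factor that binds G-rich RNA, had 10.7 and 3.16 RPKM of RPF, against 152 and 80.8 RPKM of input (TE -4.92 and -4.40, adjusted p = 0.0046 in limma). In replicate 2 these values stand for 19 RPF reads and 1822 input reads. Ftl1, the ferritin light chain, was the most abundant of the 12, with 1827 and 353 RPKM of RPF against 10694 and 9511 RPKM of input. Its TE of -3.71 and -4.67 did not pass (adjusted p = 0.060 in limma). Rplp0, Rplp1, Rpl17 and Rpl18 were among the 12 as well.

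Many of the lowest genes have near-identical copies elsewhere in the genome, such as processed pseudogenes. Of the windows of 28 bases in the coding sequence, 98.0% recur elsewhere in the genome for Hnrnpf, 88.4% for Ftl1 and 100% for Atp5g1, a subunit of the membrane ring of ATP synthase. How the authors' alignment placed reads that match several sites is not given in the sources used here, and its part in these values was not tested. Cerkl, a relative of ceramide kinase (TE -3.31 and -4.0), Ssbp4, a relative of single-stranded DNA-binding proteins (TE -4.0 and -3.23), and Tmem132a, a membrane protein (TE -4.59 and -3.18), have under 1% of such windows. Cerkl had 0.918 and 0.394 RPKM of RPF, against 5.79 and 14.6 RPKM of input, and in replicate 2 its RPF was 3 reads.

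Of the 22 genes called higher, 13 had under 5% of repeated windows: Cept1, Cstf3, Dapp1, Fbxo32, Gnb4, Hmgcs1, Mcpt8, Micos13, Mrpl35, Nos2, Prg2, Slc7a2 and Ubl5. Of the 34 called lower, 23 had at least 80%, and 7 had under 5%: Cerkl, Sap25, Scamp3, Ssbp4, St6galnac6, Tmem132a and Tmem134. Among the 8227 genes with under 5% of repeated windows, fitted alone, 1 gene was called. Several of the called genes had not been chosen by the rule for named genes and are named because they passed. Prg2, the major basic protein of eosinophil granules, had 250 and 266 RPKM of RPF, against 17.3 and 15.8 RPKM of input (TE 2.65 and 4.11), and Mcpt8, a basophil protease, had 151 and 227 RPKM of RPF, against 6.75 and 31.0 RPKM of input (TE 3.23 and 2.92). Whether cells other than dendritic cells supplied their footprints was not tested.

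**Figure D2:**
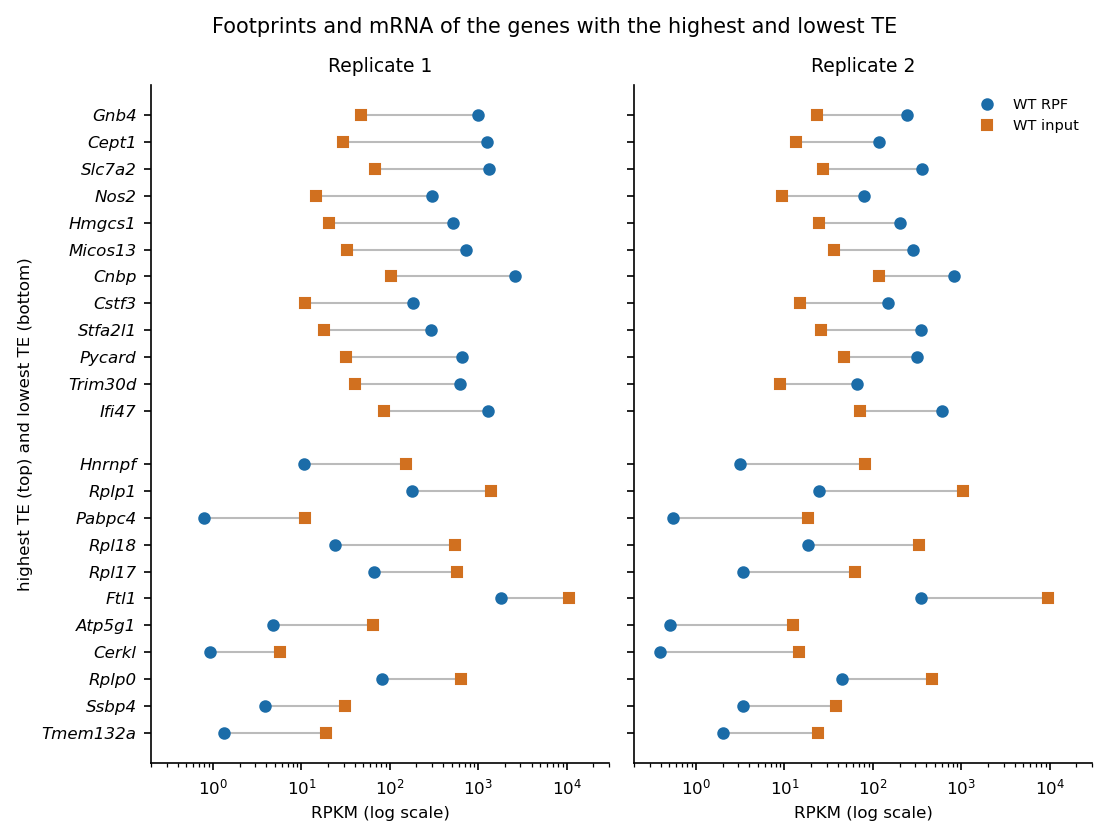
RPKM (log scale, x axis) of WT RPF (circles) and WT input (squares) in replicate 1 (left) and replicate 2 (right) for the 12 genes with the highest TE (upper block) and 11 of the 12 with the lowest (lower block). The genes were chosen by the weaker of their 2 values. RPF above input in both replicates in the upper block, and below it in the lower one, follows from that choice.

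The start region of an mRNA is where ribosomes begin, so it is shown for 4 genes from each end of the order. The sequences are those of RefSeq on GRCm38.p6, the assembly of mm10, 9 bases of the 5′ UTR followed by the first coding bases, with the start codon in capitals.

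From the highest, Gnb4 lies at chr3:32596351-32596380 (minus strand), Slc7a2 at chr8:40898944-40898973 (plus), Nos2 at chr11:78931610-78931639 (plus) and Hmgcs1 at chr13:119699665-119699694 (plus).
Gnb4: acgtctaatATGgactccgtgggccgaata
Slc7a2: tcttccaccATGattccctgcagagcagtg
Nos2: gggtccatcATGaaccccaagagtttgacc
Hmgcs1: tctttcaccATGcctgggtcacttcctttg

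From the lowest, Hnrnpf lies at chr6:117923748-117923777 (plus), Rplp1 at chr9:61914408-61914437 (minus), Ftl1 at chr7:45459611-45459640 (minus) and Tmem132a at chr19:10869606-10869635 (minus).
Hnrnpf: caagtgtccATGatgctgggccctgaggga
Rplp1: gtctacagcATGgcttccgtctccgagctc
Ftl1: ggatcagccATGacctctcagattcgtcag
Tmem132a: tgcgcctcgATGactgaacgcaaggctgcg

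A purine 3 bases before the start codon, the strongest element of the context that Kozak described, was present in 87.3% of the 790 genes at least 2-fold above the median in both replicates, in 82.1% of the 773 below and in 86.1% of all tested genes. Genes with that purine and a G after the start codon (4601 genes) had a median TE of 0.05 and 0.08, and the 676 genes with neither had -0.07 and -0.06. The difference in medians is small beside the spread of TE in either replicate.

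Cytosolic ribosomal proteins, the protein part of the ribosome, had the lowest TE of all lists: the median of 78 genes was -1.75 in replicate 1 and -2.73 in replicate 2, against 0.03 and 0.05 over all tested genes. Below the median in both replicates were 62 and above it 2, 49 were at least 2-fold below in both and 1 above, and 19 of the 34 genes called lower were of this list. The counts of this and later lists stand beside the shares of all tested genes. In both replicates 33.1% of these lay above the median and 30% below, 7.74% at least 2-fold above and 7.57% at least 2-fold below. Rpl18 had 24.0 and 18.3 RPKM of RPF, against 541 and 329 RPKM of input (TE -5.63 and -4.05, adjusted p = 0.0046 in limma). Rplp1, of the stalk that binds elongation factors, had 178 and 24.8 RPKM of RPF, against 1406 and 1049 RPKM of input (TE -4.13 and -5.30).

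The coding sequences of ribosomal proteins are also those with most copies in the genome, with a median of 96.0% repeated windows. The 60 members with at least 80% had a median TE of -1.79 and -3.06, and the 18 others -1.63 and -0.35. Another 278 tested genes with at least 80% of repeated windows, no ribosomal proteins, had a median of 0.23 and -1.39. In replicate 1, then, ribosomal proteins were low with many copies and with fewer, while in replicate 2 genes with many copies were low whether they encode ribosomal proteins or not. The 1 member with under 5% of repeated windows, Rpl3l, had a TE of -0.88 and 0.35. The part of read placement in the low values of replicate 2 was not tested.

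Rpl39l and Rpl32l, which are paralogs of ribosomal protein genes, and Rps15a lay at the other end of the list. Rpl39l had 10.9 and 4.06 RPKM of RPF, against 0.645 and 1.75 RPKM of input (TE 2.16 and 1.09), and was the member at least 2-fold above the median in both replicates. Reads of such paralogs can be exchanged with those of the main gene, so these values are uncertain.

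Ribosomal protein mRNAs are known for a 5′ terminal oligopyrimidine (TOP) tract, a C at the cap followed by a run of pyrimidines, through which growth signals control their translation. A run of a C with at least 4 more pyrimidines that begins within the first 5 bases of the annotated transcript was found in 27 of 78 ribosomal protein genes (34.6%) and in 1049 of 10187 tested genes with a coding transcript (10.3%). The first bases of 4 called members that hold it are shown with the run in capitals, from Rpl18 (chr7:45718071-45718095, plus), Rpl35 (chr2:39005107-39005131, minus), Rpl32 (chr6:115808719-115808743, minus) and Rpl28 (chr7:4792965-4792989, plus).
Rpl18: gCTCTTTCCCCgcccactccggcgc
Rpl35: CTCTTTCTCTCgaaccaggctgctt
Rpl32: CTTCTTCCTCggcgctgcctacgag
Rpl28: CTCTTTCCgtctccggccgccatag

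Members with the run at the annotated start had a median TE of -1.82 and -2.77, and the 51 without it -1.70 and -2.70. The 1022 other genes with it had -0.01 and 0.03. An annotated start can lie a few bases from the one used in these cells, so a missing run says only that these letters are not at the annotated end.

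The other parts of the translation apparatus did not share the low TE. Translation initiation and elongation factors (47 genes) had a median of 0.12 and -0.04, with 14 above the median in both replicates and 15 below. Etf1 and Gspt1, the release factors eRF1 and eRF3, were high, with TE of 2.64 and 1.32 for Etf1 and of 1.80 and 1.79 for Gspt1. Eef1a1, which brings aminoacyl-tRNA to the ribosome and whose mRNA carries a TOP tract, had 1173 and 234 RPKM of RPF, against 1561 and 2005 RPKM of input (TE -1.57 and -3.02), with 89.8% of repeated windows. Aminoacyl-tRNA synthetases, which charge tRNAs, had a median of 1.19 and 0.52, and 15 of 20 lay above the median in both, with 1 below. Mitochondrial ribosomal proteins (76 genes) stood near the median gene, at -0.15 and 0.13. Mrpl35 among them was called higher, with 1146 and 30.1 RPKM of RPF against 6.53 and 1.72 RPKM of input (TE 6.19 and 3.86).

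Replication histones, whose mRNAs end in a stem-loop in place of a poly(A) tail, had the highest median, 2.40 and 2.09 over 17 genes. In both replicates 14 lay above the median and 1 below, 10 were at least 2-fold above, and 6 were called, more than any other list gave on the high side. H4c4 had 505 and 134 RPKM of RPF, against 12.7 and 1.64 RPKM of input, and the highest mean TE of all genes tested (5.08 ± 0.69 SE, adjusted p = 0.0046 in limma). The input was selected for poly(A), and the list's median input was 4.59 and 0.9 RPKM. In replicate 2, H4c2, H4c8, H4c11 and H4c12 stood on 2 to 5 input reads, and 80.4% of windows of the median member are repeated. The ratio of footprints to poly(A) mRNA is therefore not a ratio to all mRNA for these genes.

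Genes that fold and move proteins into the endoplasmic reticulum (ER) were high: the 41 of this list had a median TE of 0.61 and 1.22, with 25 above the median in both replicates and 2 below, and 13 at least 2-fold above in both (31.7%, against 7.74% of all genes). Hspa5 (BiP), the main Hsp70 of the ER, had 1675 and 861 RPKM of RPF, against 198 and 225 RPKM of input (TE 1.92 and 2.01). Calr and Canx, lectin chaperones of the ER that also help to load MHC class I, had TE of 2.29 and 1.27 and of 1.76 and 1.54. Manf, a secreted ER stress protein, had 1.47 and 2.56. None of these passed the test over all genes. Some ER genes stood apart between replicates, Syvn1, a ubiquitin ligase of ER degradation, at -5.64 and 0.74, and Ssr4, of the translocon, at -5.52 and 0.52.

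Cytosolic chaperones had a median TE of 1.66 and 0.86 over 25 genes, with 16 above the median in both and 1 below. At least 2-fold above in both were 8 (32%, against 7.74% of all genes). Hsph1, an Hsp110, had 239 and 97.2 RPKM of RPF, against 13.8 and 25.4 RPKM of input (TE 2.91 and 1.99), and Hsp90aa1 had a TE of 4.31 and 1.00, with 92.5% of repeated windows. Proteasome subunits (44 genes) had a median of 0.34 and 0.77, with 26 above in both and 4 below. Psmd10 and Psmd14, of the cap of the proteasome, had TE of 2.16 and 1.92 and of 1.53 and 2.18. These lists of protein quality control all lay on the same side.

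Enzymes of itaconate, arginine and nitric oxide, which macrophages and dendritic cells use after LPS, had a median of 1.45 and 0.93 over 13 genes, with 9 above the median in both replicates and none below. Beside Nos2 and Slc7a2, Gch1, which makes the cofactor of nitric oxide synthase, had 223 and 50.6 RPKM of RPF, against 25.4 and 14.3 RPKM of input (TE 1.95 and 1.86). Arg1 and Ptgs2 (cyclooxygenase 2) stood apart between replicates, at 1.09 and -2.40 for Arg1 and -2.36 and 1.98 for Ptgs2. The NRF2 and glutathione genes of the antioxidant response (28) had a median of 1.20 and 0.76, with 17 above in both, 4 below and 10 at least 2-fold above. Sod2, the superoxide dismutase of mitochondria, had 1416 and 1854 RPKM of RPF, against 268 and 164 RPKM of input (TE 1.24 and 3.57).

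Genes of sterol synthesis and uptake (25) had a median of 0.21 and 1.21, with 13 above the median in both replicates, 4 below and 6 at least 2-fold above. Hmgcs1, described above, was the member called. Hsd17b7, an enzyme of the later steps of cholesterol synthesis, had 20.8 and 16.1 RPKM of RPF, against 2.55 and 3.57 RPKM of input (TE 1.65 and 2.10). Scap, the escort of SREBP, had a TE of -1.01 and -1.24. In glycolysis (21 genes, median 0.66 and 0.09), Hk2, hexokinase, had 2.20 and 2.13 and Slc2a1, the glucose transporter GLUT1, 1.82 and 1.24.

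**Figure D3:**
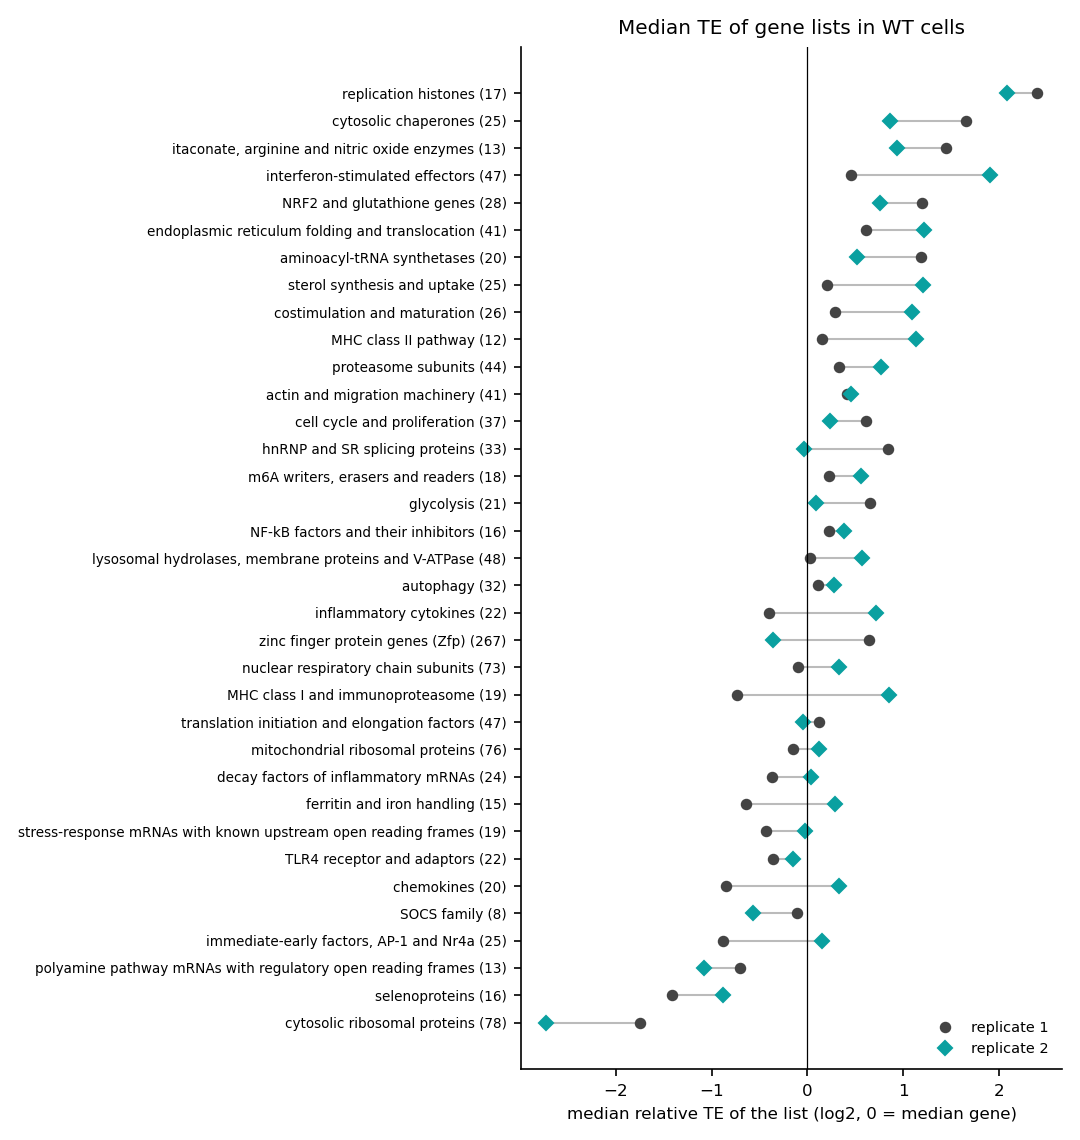
Median relative TE (log2, x axis) of each gene list in WT cells, replicate 1 (circles) and replicate 2 (diamonds), ordered by the mean of the 2, with the number of tested genes in parentheses. Replication histones, cytosolic chaperones and the itaconate, arginine and nitric oxide enzymes stand at the top, and selenoproteins and cytosolic ribosomal proteins at the bottom.

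Interferon-stimulated effectors, the antiviral and GTPase genes that type I and II interferons induce, had a median TE of 0.46 in replicate 1 and 1.91 in replicate 2 (47 genes), with 30 above the median in both, 3 below, 11 at least 2-fold above and none 2-fold below. Ifit2, which binds foreign RNA, had 726 and 663 RPKM of RPF, against 99.0 and 71.0 RPKM of input (TE 1.71 and 3.29). Iigp1, an immunity-related GTPase, had a TE of 3.28 and 2.67. Irf7, a transcription factor of the interferon response, had 270 and 256 RPKM of RPF, against 835 and 444 RPKM of input (TE -2.78 and -0.71), lower than the median gene in both. No gene of this list was called.

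The products by which a mature dendritic cell is known differed in TE, many of them between the replicates. Costimulation and maturation genes (26) had a median of 0.29 and 1.09, with 11 above in both and 2 below. Cd86, a ligand of CD28 on T cells, had 256 and 179 RPKM of RPF, against 45.2 and 65.1 RPKM of input (TE 1.33 and 1.53), and Cd80, the other such ligand, had 206 and 119 RPKM of RPF, against 36.6 and 64.5 RPKM of input (TE 1.32 and 0.96). Cd83, a marker of maturation, had a TE of 0.89 and -0.70, on both sides of the median. Itgax (CD11c), used to select these cells, had 228 and 58.9 RPKM of RPF, against 16.2 and 25.8 RPKM of input (TE 2.62 and 1.25). Ccr7, which guides mature cells to lymph nodes, had -0.86 and 1.22. None of these was called.

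MHC class II pathway genes (12) had a median of 0.15 and 1.13, 5 above in both and none below. Cd74, the invariant chain, had 4292 and 11550 RPKM of RPF, against 1804 and 2608 RPKM of input (TE 0.09 and 2.22), and H2-Ab1, a beta chain, had -1.18 and 1.37. H2-Eb2 had 1.33 and 2.28 and Ctss, the protease that removes the invariant chain, 1.78 and 1.16, and these were the members at least 2-fold above in both. The median of the list was close to that of all genes in replicate 1 and above it in replicate 2. In the MHC class I and immunoproteasome list (19), with a median of -0.73 and 0.85, B2m had 30890 and 18640 RPKM of RPF, against 4926 and 4738 RPKM of input (TE 1.49 and 2.05). H2-D1, H2-Q4 and H2-T23, class I heavy chains with 39.5% to 54.8% of repeated windows, had TE of -1.87 and -5.59, -2.30 and -0.93, and -3.42 and -1.27.

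Cytokine messages differed among themselves. Il1b had 3649 and 888 RPKM of RPF, against 482 and 240 RPKM of input (TE 1.76 and 1.96), and Il12b, the p40 chain of IL-12 and IL-23, had 414 and 297 RPKM of RPF, against 71.9 and 136 RPKM of input (TE 1.36 and 1.20), so that both were over 2-fold above the median in both replicates. Il12a, the other chain of IL-12, had -0.98 and 0.21. Tnf had -1.09 and 1.71 and Il6 -1.23 and 0.67, below the median in replicate 1 and above it in replicate 2. Il10 had 4.72 and 15.5 RPKM of RPF, against 0.848 and 2.08 RPKM of input (TE 0.80 and 2.71), on 40 RPF reads and 27 input reads in replicate 2, with a counting interval of 2.23 to 3.73. The 22 cytokines had a median of -0.40 and 0.72, with 8 above in both and 4 below. The count above is close to the share of all tested genes (33.1%).

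Chemokines had a median TE of -0.85 and 0.33 over 20 genes. Ccl5 was among the most abundant mRNAs, with 1926 and 2456 RPKM of RPF, against 17305 and 9902 RPKM of input (TE -4.33 and -1.93). Cxcl10 had 109 and 819 RPKM of RPF, against 59.7 and 14.5 RPKM of input (TE -0.30 and 5.85), the widest gap in the panel. Ccl22 had -0.92 and 2.00. Upstream of them, Tirap, an adaptor of TLR4, had 12.6 and 1.66 RPKM of RPF, against 5.51 and 6.44 RPKM of input (TE -0.04 and -1.61), with a wide counting interval in replicate 2 (-3.34 to -0.74). Ythdf1, a reader of m6A, had -0.75 and 0.05, Mettl3 1.05 and 0.01, and Actb 1.59 and 2.03.

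**Figure D4:**
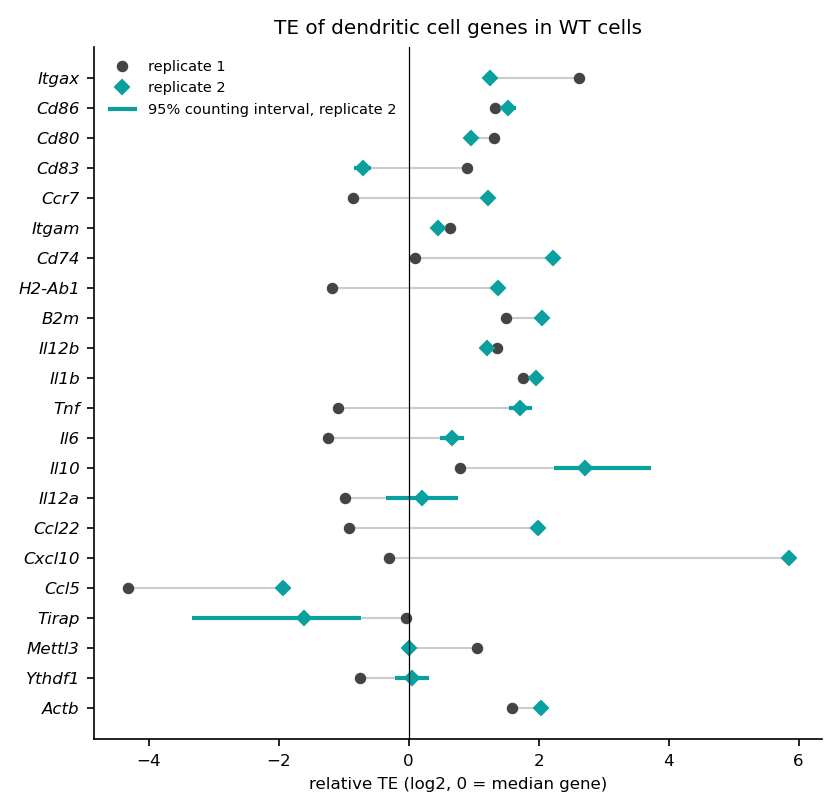
Relative TE (log2, x axis) of genes of dendritic cell function in WT cells, replicate 1 (circles) and replicate 2 (diamonds), with the 95% counting interval of replicate 2 where reads were recovered for RPF and input. The interval is taken without the 0.5 RPKM added to the values, so it need not be centred on the diamond. Cd86, Il1b, Il12b, B2m, Itgax and Actb lie above 1 in both replicates, while Tnf, Il6, Ccr7 and H2-Ab1 lie on opposite sides of 0.

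Lists of signalling and transcription genes lay closer to the median gene, some of them below it. TLR4 receptor and adaptor genes (22) had a median of -0.35 and -0.15, with 7 above in both and 11 below. Immediate-early factors of the AP-1 and Nr4a families (25), with -0.88 and 0.15, had 4 above and 8 below. Fos had 12.9 and 4.72 RPKM of RPF, against 79.0 and 13.7 RPKM of input (TE -3.72 and -1.36). Klf4 had a TE of -2.89 and -1.69, on 0.892 and 0.571 RPKM of RPF, the latter from 4 reads. Among NF-kB factors and their inhibitors (16, median 0.23 and 0.39), Bcl3 had -3.18 and -1.61 and Tnip3, an A20-binding protein, 1.80 and 3.23. Zinc finger protein genes (267) had 0.64 and -0.36, on different sides of the median gene in the 2 replicates.

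The remaining lists are given by their medians and counts. Nuclear respiratory chain subunits (73) had a median TE of -0.10 and 0.33, with 23 genes above in both replicates and 23 below. Both counts are close to the shares of all tested genes (33.1% and 30%). Ndufs4, of complex I, had 2.63 and 2.33. Actin and migration genes (41) had 0.42 and 0.45, and among them Msn, moesin, had 3077 and 1323 RPKM of RPF, against 257 and 321 RPKM of input (TE 2.42 and 2.12). Lysosomal genes (48, of which 22 lay above in both and 7 below) had 0.03 and 0.57, autophagy genes (32) 0.12 and 0.28, cell cycle genes (37, 21 above in both and 5 below) 0.62 and 0.24, hnRNP and SR splicing proteins (33) 0.85 and -0.03, and m6A writers, erasers and readers (18) 0.23 and 0.56. Ctsc, cathepsin C, a lysosomal gene, stood apart between replicates, at -0.77 and 4.47. Decay factors of inflammatory mRNAs (24) had -0.37 and 0.04, and the SOCS family (8), feedback inhibitors of cytokine signalling, -0.11 and -0.57. Mitochondrially encoded, long noncoding and snoRNA host genes had no tested member.

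Some mRNAs with known translational control were at the low end, and others in the same lists were not. Oaz1, antizyme, whose full-length protein needs a ribosomal frameshift, had 47.7 and 19.3 RPKM of RPF, against 325 and 232 RPKM of input (TE -3.91 and -3.48, adjusted p = 0.020 in limma), with 96.1% of repeated windows. The polyamine list it belongs to (13 genes) had a median of -0.70 and -1.08, with 2 above and 8 below in both and 4 at least 2-fold below. Azin1, the antizyme inhibitor, lay on the other side at 1.33 and 0.68.

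Ddit3 (CHOP) and Ppp1r15a (GADD34), induced in the integrated stress response and held back by upstream open reading frames in unstressed cells, had 10.0 and 2.46 RPKM of RPF, against 23.4 and 31.7 RPKM of input for Ddit3 (TE -2.34 and -3.37), and a TE of -3.85 and -2.09 for Ppp1r15a. Neither was called (adjusted p = 0.079 for Ddit3 in limma), and Ddit3 had 6 RPF reads in replicate 2. The 19 stress-response genes with such frames did not share the low TE, with a median of -0.43 and -0.03, 4 at least 2-fold above and 5 below. Slc7a1, an arginine transporter in that list, had 1.13 and 2.28.

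Ferritin mRNA carries an iron response element (IRE) in its 5′ UTR, a stem-loop to which iron regulatory proteins bind when iron is scarce and keep ribosomes off. It is shown for Ftl1 (chr7:45459781-45459810, minus strand), with the stretch that matches the loop motif of such elements in capitals. That motif was searched on the transcribed strand and occurs in the 5′ UTR of 538 of 10187 tested genes (5.28%), so its letters alone mark no element.
Ftl1: tgtgtcttgCTTCAACAGTGTttgaacgga

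Tfrc is the transferrin receptor, whose elements lie in the 3′ UTR and act on decay. It had 99.5 and 87.4 RPKM of RPF, against 15.1 and 22.9 RPKM of input (TE 1.52 and 1.99). Ftl1, described above, had a TE of -3.71 and -4.67, with 88.4% of repeated windows. Control of either by iron was not tested. Slc25a37, the iron importer of mitochondria, had -2.47 and -2.67. The 15 genes of iron handling had a median of -0.64 and 0.29. Ncoa4, the receptor that delivers ferritin to lysosomes, stood at 3.07 and -1.64, with 96.8% of repeated windows.

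Selenoproteins, which need a UGA codon to be read as selenocysteine, had a median of -1.41 and -0.89 (16 genes), with 11 below the median in both, 2 above and 5 at least 2-fold below (31.2%, against 7.57% of all genes). Selenop, a carrier of selenium in plasma, had 21.2 and 6.89 RPKM of RPF, against 39.2 and 42.0 RPKM of input (TE -2.03 and -2.45). Selenos, of ER protein degradation, and Txnrd1, thioredoxin reductase, were the members on the high side, at 0.57 and 0.79 and at 1.30 and 0.55. For the 13 with under 5% of repeated windows the median was -1.44 and -0.97, so this list was as low without genes that have copies.

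TE differed with the base composition of the coding sequence in both replicates. When tested genes were divided into 5 groups of equal size by coding GC content, from 34.4% to 46.7% in the lowest and from 57.8% to 76.5% in the highest, the median TE was 0.91, 0.44, 0.11, -0.39 and -0.85 in replicate 1 and 0.35, 0.26, 0.21, -0.16 and -0.43 in replicate 2. At least 2-fold above in both replicates were 15.9% of genes in the lowest group and 1.82% in the highest, and at least 2-fold below 1.87% and 17.6%. The median GC content was 48.0% in the 790 high genes, 57.5% in the 773 low genes and 52.5% in all. The order was the same among genes with under 5% of repeated windows (0.89 to -0.85 and 0.51 to -0.40). In the libraries labelled KO the lowest and highest groups had 0.94 and -0.98 in replicate 1 and 0.22 and -0.33 in replicate 2, where the 3 lowest groups lay close together. The gene lists differed in coding GC content as well. Its median was 46.8% for cytosolic chaperones and 60.1% for immediate-early factors, against 52.5% for all tested genes. Replication histones, with a high TE, had 64.7%, and cytosolic ribosomal proteins, with a low TE, had 52.55%. The part of GC content in the medians of the lists was not tested.

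The trend lay in the footprints. Median RPF was 38.3 and 14.1 RPKM in the group with the lowest GC content and 11.9 and 8.21 RPKM in that with the highest, while median input was 9.19 and 11.3 RPKM in the lowest and 10.1 and 12.2 RPKM in the highest. Micrococcal nuclease, used here to make footprints, is known to cut more readily at A and T. Its part in the trend was not tested.

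**Figure D5:**
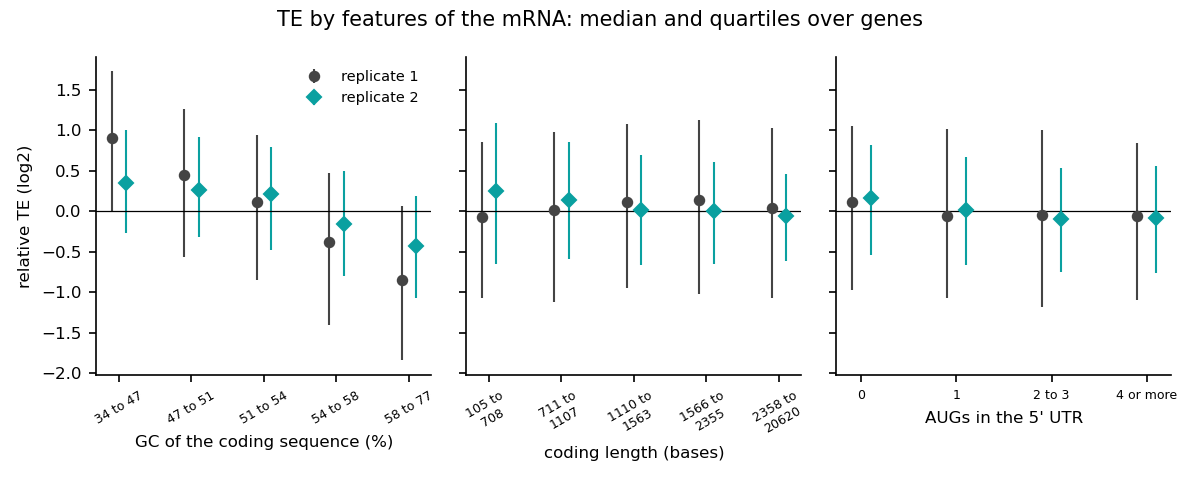
Median relative TE (log2, y axis) of tested genes in WT cells in 5 groups by coding GC content (left), in 5 groups by coding length (middle) and by the number of AUGs in the 5′ UTR (right), in replicate 1 (circles) and replicate 2 (diamonds), with bars from the first to the third quartile of genes. The medians go down steadily with GC content, to -0.85 and -0.43 in the highest group, and differ little with length or upstream AUGs.

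GC content of the 5′ UTR went the same way with smaller differences, from a median TE of 0.41 and 0.21 in the lowest group to -0.43 and -0.26 in the highest. Genes without an AUG in the 5′ UTR (5298) had 0.11 and 0.16, and those with 4 or more (1127) had -0.06 and -0.08. The share at least 2-fold above in both was 8.85% and 5.59%. By coding length, the median went from -0.07 and 0.25 in the shortest group to 0.04 and -0.06 in the longest. These differences were a small part of the spread between genes.

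A property of the tables bears on replicate 2. The RPF values there stand on the coding length and input on the exon length, so a gene with long UTRs has its input spread over more bases. In 5 groups by the ratio of exon to coding length, the median TE of replicate 2 was -0.20 in the lowest and 0.46 in the highest, against 0.00 and 0.08 in replicate 1. With RPF of replicate 2 set on the exon length, in the 7838 genes where both lengths are known, 653 genes were at least 2-fold above in both replicates and 515 below, against 598 and 596 of the same genes as deposited.

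Some genes were low in replicate 1 alone. Socs3, the inhibitor of cytokine receptors, had 1.10 and 122 RPKM of RPF, against 52.6 and 38.0 RPKM of input (TE -6.21 and 1.75). Nfkbia, the inhibitor of NF-kB, had 23.7 and 556 RPKM of RPF, against 265 and 252 RPKM of input (TE -4.61 and 1.22), and Cebpb 14.8 and 420 RPKM of RPF, against 339 and 223 RPKM of input (TE -5.63 and 0.99). Between the tables, which were normalized separately, their inputs were close and their footprints were far apart. Set against the libraries labelled KO, the TE of WT gave no call in limma (0%, the smallest adjusted p being 0.9999). Unadjusted p was below 0.05 for 38 genes (0.372%). That fit had no term for the gap in TE between the replicates, so the gap entered its spread. It could therefore detect little, and the lack of calls does not show that WT and KO values were alike.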

How the data were processed

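The authors deposited RPKM values for RPF and input in 1 table per replicate, and mm10 as the genome build, TopHat2 (2.0.14), bcl2fastq and Cuffnorm stand in the submitters' processing notes. For the annotation, for reads with several matches and for how the second table was made, methods are not given in the sources. The authors' own log2 translation efficiencies, 2 columns in each table, were not used. Rows with a date for a symbol (27 and 19) were left out, older symbols were updated through RefSeq (GRCm38.p6), and 11741 genes were in both tables. The second table repeats the column names of the first, and its columns were taken as the groups they name.

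In replicate 2, values were whole reads (tolerance 0.01) on the coding length for 98.9% of genes in RPF and on the exon length for 77.8% in input, against 3.35% and 1.80% with the length of another gene. Exact intervals (95%) of TE come from these reads and cover counting error only, since the reads carry no molecular identifiers and PCR copies count. No whole reads were recovered in replicate 1.

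RPF was tested against input in the 4 WT libraries with limma 3.58.1 in R 4.3.3 (lmFit and eBayes with an intensity trend, two-sided, Benjamini-Hochberg over 10211 genes, threshold 0.05) on log2(RPKM + 0.5), with the replicate as a block, since RPF and input of a replicate come from the same lysate and table. Fold changes on that scale understate those of low genes. Repeated windows are stretches of 28 bases of a coding sequence, junctions included, that occur elsewhere in the genome.

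Named genes were the 12 highest and 12 lowest by the weaker replicate (mean input of at least 5 RPKM, at least 10 recovered reads in RPF plus input of replicate 2), 3 members at each end of every list, every member of lists of 12 or fewer, and a panel of dendritic cell genes. Gene lists and rule were chosen with earlier results of these data known, so lists carry no test. Alternatives changed the pseudocount, filters, centring, normalization, block, trend, length and libraries used. Values of a few genes are not reported here.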

Additional observations from a re-analysis of the deposited data

How the results depend on the processing

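The number of genes called by limma depended on almost every choice. Against 56 calls in all (22 higher and 34 lower), there were 7 with a pseudocount of 0.1, 34 with 1, 147 with no filter on input, 26 with no trend and 27 without centring. Uncentred, 20 were higher and 7 lower, 19 of the 27 were among the 56, and the median TE lay at 1.16 in replicate 1 and -0.08 in replicate 2. Of the fits chosen after seeing the data, that on genes with under 5% of repeated windows made 1 call. The other, on the 7838 genes with known lengths as deposited, made 93 calls. A planned fit, with replicate 2 RPF of those genes on the exon length, made 0. There were 0 calls with input of at least 5 RPKM, with quantile normalization, with genes on 1 base kept and without the replicate block. Over all 8 libraries with the replicate block there were 0 as well. Fits without each WT library in turn kept the libraries labelled KO, so they cannot show which library the calls rest on. Unadjusted p below 0.05 was reached without the block by 807 genes higher and 677 lower. The cause was not tested.

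The counts of genes 2-fold above (790) and 2-fold below (773) in both replicates became 2581 and 2640 in replicate 1 alone and 1731 and 1607 in replicate 2 alone, fewer conditions being asked. Within the 7838 genes with known lengths, 515 were below with the exon length, against 596 as deposited. Without centring they were 1164 and 340. The other alternatives run for these counts kept them within 1.5 times.

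The mean of the 2 list medians changed sign for translation initiation and elongation factors with input of at least 5 RPKM (-0.0358), for mitochondrial ribosomal proteins with no filter (0.0294), the exon length (0.0708) and under 5% of repeated windows (0.1402), and for Zfp genes with input of at least 5 RPKM (-0.1585) and under 5% of repeated windows (-0.1439). It also did so under 5% of repeated windows for stress-response mRNAs (0.0264), ferritin and iron handling (0.0642) and chemokines (0.0408). Dohh (0.0155) and Socs4 (0.0346) changed sign with no filter. In 13 other fits of a list the median kept its side and moved by more than the spread between replicates: these were of ribosomal proteins, replication histones, stress-response mRNAs, polyamine, TLR4, NF-kB, actin and migration, and autophagy genes. Under 5% of repeated windows the replicate 1 median was 0.15 for ER genes, 0.06 for the proteasome, 0.11 for interferon effectors and 0.04 for glycolysis, against 0.61, 0.34, 0.46 and 0.66 over all members tested. Replicate 2 depth limits low genes: 936 tested genes had under 10 RPF reads. In replicate 1, genes with input under 0.05 RPKM had a median RPF of 0.819 RPKM, against 0.137 RPKM in replicate 2, so high TE at low input is uncertain there.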
